A study of Mus musculus with 4 samples.

Results

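The SCF complex (Skp1, Cul1, F-box protein) is a ubiquitin ligase, an enzyme complex that marks proteins for destruction by the proteasome. Cul1 is its scaffold, the RING protein Rbx1 at one end of the scaffold binds the ubiquitin-carrying enzyme, and the adaptor Skp1 at the other end holds an exchangeable F-box protein that picks the substrate. Fbxw11 (also called HOS or β-TrCP2) and its close relative Btrc (β-TrCP1) pick phosphorylated substrates such as IκB and β-catenin, which gives them a place in NF-κB and β-catenin/TCF signaling. The genes described here are Fbxw11, Btrc, 2 other F-box genes (Fbxw7 and Skp2), the Skp2 cofactor Cks1b, and the core genes Skp1a, Cul1 and Rbx1. All probes that the deposited table names for these 8 genes were taken, which gave 8 of the 24561 genes and 15 of the 55681 gene probes on the array.

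The samples were 4 lines of L1210, a mouse lymphocytic leukemia cell line of DBA subline 212, infected with lentivirus and sorted for GFP. L1210-control was the control transfection. L1210-Fbxw11a, L1210-Fbxw11c and L1210-Fbxw11d each overexpressed 1 transcript variant of Fbxw11. It was full length for Fbxw11a, without exon 2 for Fbxw11c and without exons 2 and 3 for Fbxw11d. The paper lists a lentiviral vector with an EF1α promoter among its reagents but does not say that it carried the variants. Whether the sorted lines were pools or clones is not given in the sources used here. Total RNA of each line was labeled with Cy3 and read on 1 Agilent array of 60-base probes. With 1 array per line no difference has a replicate check, no p-value is given, and the number of arrays limits the precision. The lines are named by their insert, as the control, Fbxw11a, Fbxw11c and Fbxw11d lines. The 3 comparisons share the same control array, so their values are given side by side and are not independent.

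The control, Fbxw11a and Fbxw11c lines were hybridized on 1 slide and the Fbxw11d line on another slide that was scanned separately, so slide and variant cannot be told apart for the Fbxw11d line. Between 62.5% and 68.7% of the gene probes were well above background, and no gene spot was saturated. Among markers of the labelled cell type, 7 of 12 lymphoid and B-lineage genes were well above background on all 4 arrays (Blnk, Dntt and Cd79a among them), whereas Cd79b, Ebf1, Igll1, Rag1 and Rag2 were on none. In bulk RNA a change in the share of cells of a type cannot be told from a change in RNA per cell. Of the 9 T-lineage markers with a probe 6 were above background on all arrays, of the 7 macrophage and monocyte markers 5, and of the 8 fibroblast and stromal markers 4. The summed signal of the macrophage list ran from 11091 to 14556 and was highest in the control line. That of the stromal list ran from 1238 in the control line to 4127 in the Fbxw11c line, most of it from Col1a2, a collagen gene. Cd3d, Cd3g, Lyz2, Pdgfrb and Thy1 cleared background on no array. Their part in the values below was not tested.

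Signals are given in units of the control array, after each array was divided by its own 75th percentile. The scanner's error was between 10.0% and 11.8% of the signal for the probes of the 8 genes that cleared background. A second measure of technical error came from 399 probes printed on 10 spots of each array. It gave the SD of a ratio of 2 single spots on the log2 scale. For each probe the median SD of its brightness bin, 1 of 5, was used. It covers neither culture, sorting nor RNA extraction. For probes of the 8 genes with a signal of 1000 or more, this SD of a ratio to the control line was 0.083 to 0.11. Over all probes that bright the median absolute log2 ratio was 0.11, 0.11 and 0.15 in the Fbxw11a, Fbxw11c and Fbxw11d lines. Past 2 SD thus means beyond spot noise only, and the share of all probes past it was not counted. A difference was called past the study's own limit of 2-fold, which is 1 on the log2 scale.

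Fbxw11 itself was read by a pair of probes, both at the far 3′ end of the transcript. Probe A_51_P141860 lies at chr11:32646601-32646660 (mm9, plus strand) and begins at base 3803 of NM_134015. Probe A_55_P1961894 lies at chr11:32646490-32646549 and begins at base 3692, leaving 51 bases between them in the genome. The distance between their starts is 111 bases both in the genome and in the transcript, with no intron between them. Both windows lie far past the coding sequence of Fbxw11 and far from exons 2 and 3, so they tell none of the variants apart. Whether the introduced constructs carried this 3′ end is not given in the sources used here, and these probes are therefore no check of the overexpression. A stretch of the first probe is shown because it holds the letters of the common polyadenylation signal, AATAAA, in capitals, beside the primers that the study used for real-time RT-PCR of mouse Fbxw11.

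Fbxw11 probe A_51_P141860, 30 of 60 bases: tggaatgtgcttAATAAAaacaaaagtttg
Fbxw11 forward primer: cgggactttatcactgcttta
Fbxw11 reverse primer: atcactcgctgccattcttta

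AATAAA was searched in the sense strand, and 10.1% of all gene probes on the array hold it. None of the 2 primers, in either orientation, was found in either Fbxw11 probe. Where the PCR product lies in the transcript was not analysed here.

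Fbxw11 was bright in every line and differed little between them. Probe A_51_P141860 read 13153 in the control line, 16339 with Fbxw11a, 15871 with Fbxw11c and 13383 with Fbxw11d. Its log2 ratios to the control line were 0.31, 0.27 and 0.03, or 1.24-fold, 1.21-fold and 1.02-fold. From low to high, the order was control, Fbxw11d, Fbxw11c and Fbxw11a. The lowest pair was separated by 0.23 SD of a single-spot ratio and the highest pair by 0.43 SD, while the gap between the Fbxw11d and Fbxw11c lines was 2.1 SD. Probe A_55_P1961894 read 9730 in the control line, 11244 with Fbxw11a, 11327 with Fbxw11c and 10990 with Fbxw11d. Its log2 ratios were 0.21, 0.22 and 0.18, and in the order control, Fbxw11d, Fbxw11a and Fbxw11c the gaps were 1.6, 0.28 and 0.11 SD. The control line was lowest for both probes, and the ratios of the Fbxw11a and Fbxw11c lines, from the same slide as the control line, were past 2 SD for both. Scaled to E1A spike-in RNA, a control added at labeling, the Fbxw11a-line ratio of A_55_P1961894 and both Fbxw11c-line ratios were within 2 SD, at 0.08, 0.12 and 0.07. The Fbxw11c-line ratio of A_55_P1961894 was also within 2 SD, at 0.16, with quantile normalization and in the normalized values of the authors. The probes differed from each other by 0.10, 0.05 and -0.15 in the 3 ratios, each within 1 SD of such a difference.

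**Figure D1:**
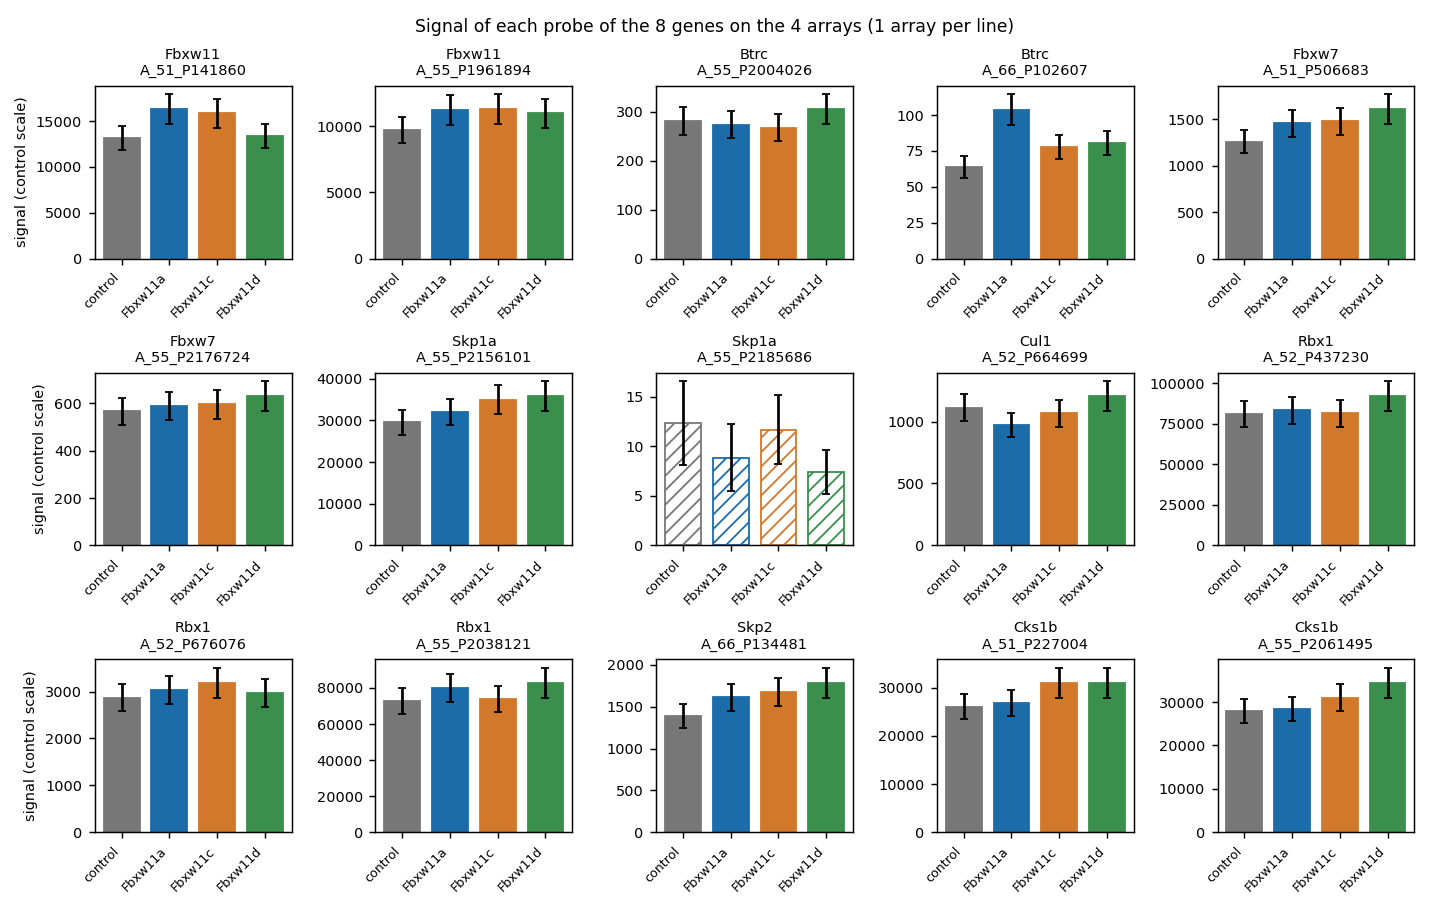
Signal in units of the control array (y axis, linear, from 0) of each of the 15 probes in the 4 lines, with the scanner's error of the single spot as bars; hatched open bars mark a probe not well above background. Fbxw11 probe A_51_P141860 runs from 13153 in the control line to 16339 in the Fbxw11a line, and Btrc probe A_66_P102607 stands out with 104 in the Fbxw11a line against 63.9 in the control line.

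The Fbxw11 ratio of the Fbxw11d line depended on how the arrays were scaled. Under quantile normalization it was -0.07 for A_51_P141860 and 0.10 for A_55_P1961894, in the normalized values of the authors -0.06 and 0.11, and without scaling between arrays 0.65 and 0.80. The E1A RNA read 0.59 lower in the Fbxw11d line than in the control line after scaling, on 8 probes. Scaled to it, the Fbxw11d-line ratios were 0.61 and 0.76, beside a median of 0.59 over all 33071 probes well above background on the 4 arrays. Relative to that median both Fbxw11 probes were where they were before. Median centring, E1A scaling and no scaling moved the median of all probes in the Fbxw11d line by 0.22, 0.59 and 0.62. Under them all 14 measured probes were past 2 SD on the higher side in that line. Of all probes 71.6%, 88.7% and 89.6% were then above 0 there, and the share past 2 SD was not counted. In the Fbxw11a and Fbxw11c lines the Fbxw11 ratios stayed above 0 under the 6 alternatives that changed a ratio, between 0.07 and 0.39. No setting brought Fbxw11 past 2-fold in any line.

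**Figure D2:**
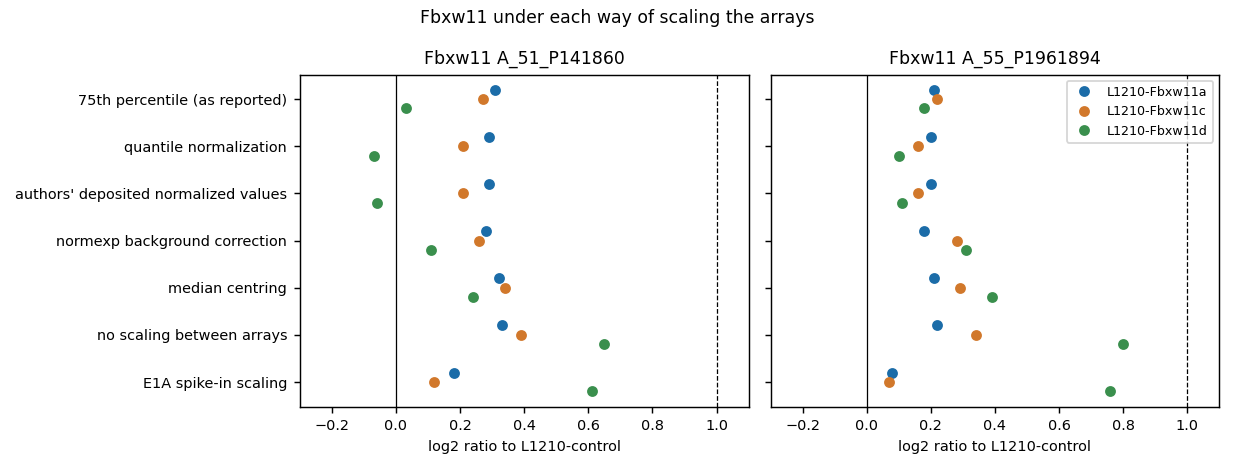
log2 ratio of each variant line to the control line (x axis) for the pair of Fbxw11 probes (panels) under 7 ways of processing (rows); the dashed line marks 2-fold. The Fbxw11d line moves from -0.07 to 0.65 for A_51_P141860, whereas the Fbxw11a line stays between 0.18 and 0.33.

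Btrc, whose protein shares most substrates with Fbxw11, read at low signal, and its probes differed from each other. Probe A_55_P2004026 (chr19:45604418-45604477, from base 2909 of NM_001037758) read 281 in the control line, 273 with Fbxw11a, 267 with Fbxw11c and 305 with Fbxw11d. From low to high the order was Fbxw11c, Fbxw11a, control and Fbxw11d, and neighbors in it lay at most 0.75 SD apart. Probe A_66_P102607 (chr19:45607701-45607760, from base 6192) read 63.9, 103.8, 77.8 and 80.3 in the same lines. Its log2 ratio of 0.70 in the Fbxw11a line, or 1.62-fold, was the highest of any probe of the 8 genes in any variant line. The ratios in the Fbxw11c and Fbxw11d lines were 0.28 and 0.33. The control signal of 63.9 is near the lower edge of its brightness bin, 48.3 to 727, where control-array spots had an SD of 0.103. In the next dimmer bin it was 0.605, so the SD used for this probe may be too small. In the Fbxw11a line the later probe exceeded the earlier one by 0.74 on the log2 scale, which is 3.5 SD of such a difference. In the Fbxw11c and Fbxw11d lines it did so by 0.35 and 0.21, or 1.8 SD and 0.89 SD. With quantile normalization and in the normalized values of the authors the Fbxw11c-line difference was 0.42, or 2.1 SD. The start-to-start distance was 3283 bases in genome and transcript alike, with no intron between them, and both list the same pair of RefSeq transcripts. With normexp background correction the 0.70 became 0.37, the 0.28 became 0.12 and the 0.33 became -0.02, and the difference between the probes in the Fbxw11a line became 0.39, or 1.8 SD. With E1A scaling the 0.28 became 0.13, within 2 SD. The Fbxw11d-line ratio rose to 0.52 with quantile normalization and in the normalized values of the authors, and to 0.95 without scaling.

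Fbxw7, an F-box gene whose protein targets cyclin E, Myc and Notch, was read by probes that differ in the isoforms they list. Probe A_51_P506683 (chr3:84781446-84781505) lists 3 RefSeq transcripts, NM_080428 included. Probe A_55_P2176724 (chr3:84707897-84707956) lists 2 of them, NM_001177773 and NM_001177774, and lies 73549 bases upstream in the genome. Its sequence is shown as the isoform-restricted one.

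Fbxw7 probe A_55_P2176724: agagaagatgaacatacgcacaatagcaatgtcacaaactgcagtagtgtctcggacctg

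The shared probe read 1261 in the control line, 1460 with Fbxw11a, 1479 with Fbxw11c and 1613 with Fbxw11d, with log2 ratios of 0.21, 0.23 and 0.35, each past 2 SD. With E1A scaling the Fbxw11a-line and Fbxw11c-line ratios were both 0.08 and within 2 SD, and with normexp the Fbxw11c-line ratio was 0.17 and no longer past 2 SD. The Fbxw11d-line ratio ran from 0.26 to 0.98 over the alternatives. The isoform-restricted probe read 565.9, 590.0, 595.5 and 632.1, with ratios of 0.06, 0.07 and 0.16, each within 1 SD. Both gave the same order of lines, with the control line lowest and the Fbxw11d line highest. The difference between them was 0.15, 0.16 and 0.20, within 1 SD of such a difference in each line, so a difference between isoform groups was not detectable with these single spots.

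Skp2, the F-box gene whose protein targets the cell cycle inhibitor p27, had 1 probe, A_66_P134481 (chr15:9042088-9042147, minus strand, from base 5790 of NM_145468). It read 1388 in the control line, 1612 with Fbxw11a, 1674 with Fbxw11c and 1787 with Fbxw11d. The log2 ratios were 0.22, 0.27 and 0.36, each past 2 SD, and the last was the highest ratio among the 14 probes in the Fbxw11d line. With E1A scaling the first pair became 0.09 and 0.12, both within 2 SD, and the Fbxw11d-line ratio ran from 0.30 to 0.99 over the alternatives. The variant lines followed each other by 0.58 and 0.82 SD.

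Cks1b, the small cofactor that Skp2 needs to bind p27, was bright. Probe A_51_P227004 (chr3:89219410-89219469, minus strand) read 26056 in the control line, 26757 with Fbxw11a, 31042 with Fbxw11c and 30985 with Fbxw11d. Probe A_55_P2061495 (chr3:89219495-89219554) read 27998, 28403, 31063 and 34494. Both probes put the Fbxw11a line within 0.44 SD of the control line. The ratios in the Fbxw11c line were 0.25 and 0.15, and those in the Fbxw11d line 0.25 and 0.30, and 3 of these 4 were past 2 SD, the exception being the 0.15. With E1A scaling the Fbxw11c-line ratio of A_51_P227004 fell within 2 SD, at 0.10, and that of A_55_P2061495 was at 0.00. With quantile normalization and in the normalized values of the authors the Fbxw11d-line ratio of A_51_P227004 was 0.18, within 2 SD, whereas over all alternatives the Fbxw11d-line ratios of the pair reached 0.87 and 0.92. The 0.15 became 0.18 with normexp, 0.22 with median centring and 0.27 without scaling, each past 2 SD. Mice also carry Cks1brt, a retrotransposed copy of Cks1b. The Cks1brt probe above background on all arrays, A_55_P2057142, read 2094, 2147, 2439 and 2996, and shared no run longer than 5 bases with either Cks1b probe. Comparing probes leaves out the rest of the Cks1brt RNA, so it cannot decide whether the Cks1b probes also bind that RNA. The array cannot decide it either, and the Cks1b values are uncertain to that extent.

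Skp1a, now named Skp1 in RefSeq (GRCm38.p6), is the adaptor shared by all SCF complexes. Probe A_55_P2156101 (chr11:52059688-52059747, from base 781 of NM_011543) read 29533 in the control line, 32034 with Fbxw11a, 34939 with Fbxw11c and 35943 with Fbxw11d. Its log2 ratios were 0.12, 0.24 and 0.28, the last pair past 2 SD, although 0.24 became 0.09 and fell within 2 SD with E1A scaling. A second Skp1a probe, A_55_P2185686 (chr11:52051767-52051826), lists a single Ensembl transcript and no RefSeq entry. On no array did it clear background, with signals between 7.40 and 12.4, and it was the only one of the 15 probes to fail that filter.

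For the scaffold and the RING subunit, the probes that begin earliest in the transcript are shown.

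Cul1 probe A_52_P664699: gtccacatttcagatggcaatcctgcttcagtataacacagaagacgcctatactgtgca
Rbx1 probe A_55_P2038121: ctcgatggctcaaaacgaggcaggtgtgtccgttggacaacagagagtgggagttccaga

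Cul1 (chr6:47470794-47470853, from base 2129 of NM_012042) was the only gene of the 8 with a probe past 2 SD on the lower side. It read 1112 in the control line, 974 with Fbxw11a, 1066 with Fbxw11c and 1208 with Fbxw11d, with log2 ratios of -0.19, -0.06 and 0.12. The Fbxw11a line lay 2.1 SD below the control line, at the limit, and its ratio was within 2 SD with normexp, at -0.16, and without scaling, at -0.17. With E1A scaling it was -0.32, or 3.6 SD below, and the Fbxw11c-line ratio became -0.21, also past 2 SD. Under the 75th-percentile scaling the Fbxw11c and Fbxw11d lines were within 1.1 SD of it, on either side, and the Fbxw11d-line ratio ran from 0.05 to 0.74 over the alternatives.

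Rbx1 had 3 probes, all with ratios above 0 under the 75th-percentile scaling. Probe A_55_P2038121 (chr15:81304298-81304357, from base 310 of NM_019712) read 72550 in the control line, 79934 with Fbxw11a, 73942 with Fbxw11c and 82939 with Fbxw11d. Probe A_52_P437230 (chr15:81305549-81305608) begins 94 bases further in the transcript but 1251 bases further in the genome, across an intron, and read 80946, 83266, 81311 and 92242. These probes gave the same order of lines, with the Fbxw11d line highest, whereas A_52_P676076 (chr15:81306684-81306743) read 2867, 3037, 3190 and 2964 with the Fbxw11c line highest. The 9 ratios lay between 0.01 and 0.19, none past 2 SD under the 75th-percentile scaling, and the probes differed from each other by no more than 1.2 SD in any line. In the normalized values of the authors 3 of the 9 were past 2 SD, A_55_P2038121 in the Fbxw11a line at 0.20 and in the Fbxw11d line at 0.24, and A_52_P437230 in the Fbxw11d line at 0.25. A_52_P676076 in the Fbxw11c line was past 2 SD with normexp at 0.17, with median centring at 0.23 and without scaling at 0.27. With E1A scaling the Fbxw11d-line ratios were between 0.64 and 0.78, and 4 of the 6 others were below 0.

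**Figure D3:**
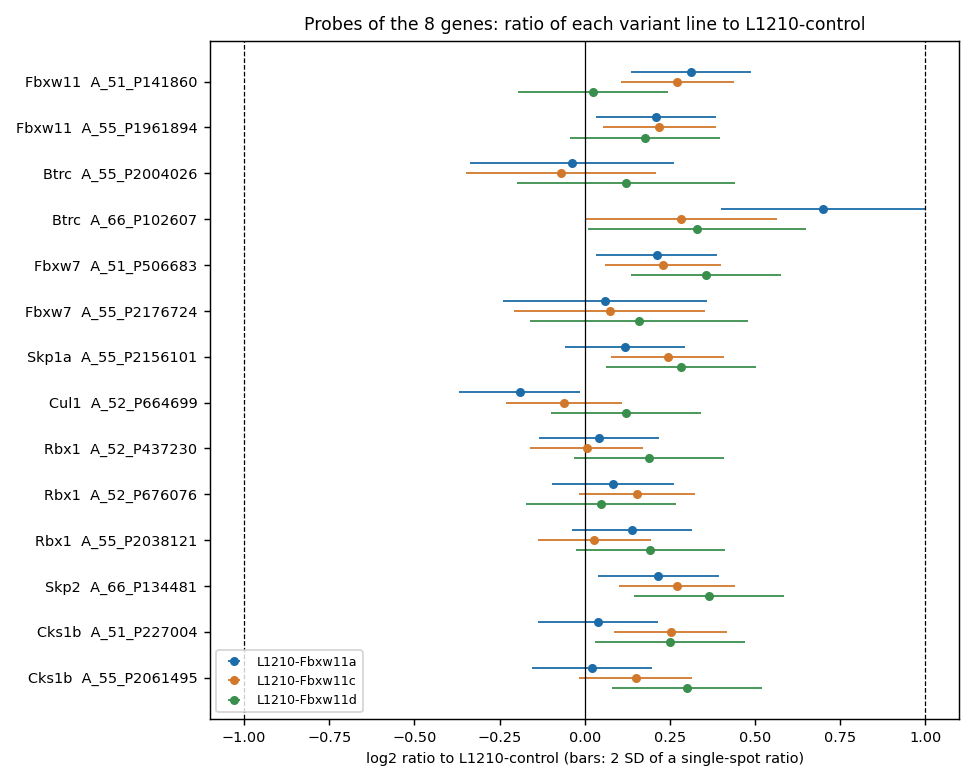
log2 ratio of each variant line to the control line (x axis) for the 14 probes well above background (rows); bars span 2 SD of a ratio between single spots on either side and dashed lines mark 2-fold. All points lie inside the dashed lines, from -0.19 (Cul1 in the Fbxw11a line) to 0.70 (Btrc A_66_P102607 in the Fbxw11a line).

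Across the 8 genes, 14 of 15 probes were measured and 0 of them passed 2-fold in any variant line. Over all probes well above background on at least one array of the pair, 5.13% passed 2-fold in the Fbxw11a line, 4.47% in the Fbxw11c line and 6.97% in the Fbxw11d line, bounds included. Over the probes well above background on all 4 arrays, as these 14 were, the shares were 2.57%, 2.30% and 5.02%. A count of 0 among 14 is near those shares. At 1.5-fold 1 probe passed, the later Btrc probe in the Fbxw11a line, and 0 passed in the Fbxw11c and Fbxw11d lines. Over all probes well above background on at least 1 array of the pair, 12.7%, 11.4% and 17.7% did, bounds included. The 1.5-fold shares over probes well above background on all 4 arrays were not counted. Between the variant lines themselves 0 of the 14 passed 2-fold, beside 4.92% of all probes for the Fbxw11c line against the Fbxw11a line, 7.34% for the Fbxw11d line against the Fbxw11a line and 5.26% for the Fbxw11d line against the Fbxw11c line, or 2.39%, 4.80% and 3.59% of those well above background on all arrays.

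Small differences leaned one way. The ratio to the control line was above 0 for 12 of the 14 probes in the Fbxw11a line, 12 in the Fbxw11c line and 14 in the Fbxw11d line, where 48.1%, 49.7% and 49.9% of all probes well above background on the 4 arrays were above 0. For the 11 of them with a signal of 1000 or more in the control line the counts were 10, 10 and 11, where 48.4%, 56.5% and 59.2% of all probes that bright were above 0. The median ratios were 0.10, 0.19 and 0.19, beside -0.01, 0.00 and 0.00 over all those probes and -0.01, 0.03 and 0.05 over the bright ones. The control line was the lowest line for 12 of the 14 probes, as it was for 23.5% of all probes, a single array deciding this in each case. That count was 10 with quantile normalization and with normexp, 9 in the normalized values of the authors and 5 with E1A scaling, where it was so for 24.1%, 20.0%, 24.2% and 12.9% of all probes. Among the 11 bright probes the control line was lowest for 10, as for 28.5% of all probes that bright. Among all probes that bright 90% of the ratios lay between -0.28 and 0.30 in the Fbxw11a line, -0.27 and 0.30 in the Fbxw11c line, and -0.36 and 0.41 in the Fbxw11d line. Of the 11 bright probes, only Fbxw11 A_51_P141860 in the Fbxw11a line, at 0.31, lay outside those ranges. Several probes of one gene share its RNA and are not separate measurements. With each gene read by its brightest probe, 6, 6 and 8 of the 8 genes were above 0 in the 3 lines. Of all genes well above background on the 4 arrays 51.1%, 53.7% and 55.8% were. Scaling to the E1A spike-in moved the median of all probes by -0.13 in the Fbxw11a line and -0.16 in the Fbxw11c line, and left 6 and 8 of the 14 probes above 0 there, where 27.0% and 24.5% of all probes were above 0. In the Fbxw11d line it moved the median by 0.59 and gave 14 of 14 above 0, where 88.7% of all probes were. Of the 6 probes past 2 SD in the Fbxw11a line it left 3. Of the 7 in the Fbxw11c line it left 0, and it put Cul1 past 2 SD on the lower side there. In the Fbxw11d line all 14 were past 2 SD under it. The shares of all probes past 2 SD were not counted, so these counts have no comparison.

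**Figure D4:**
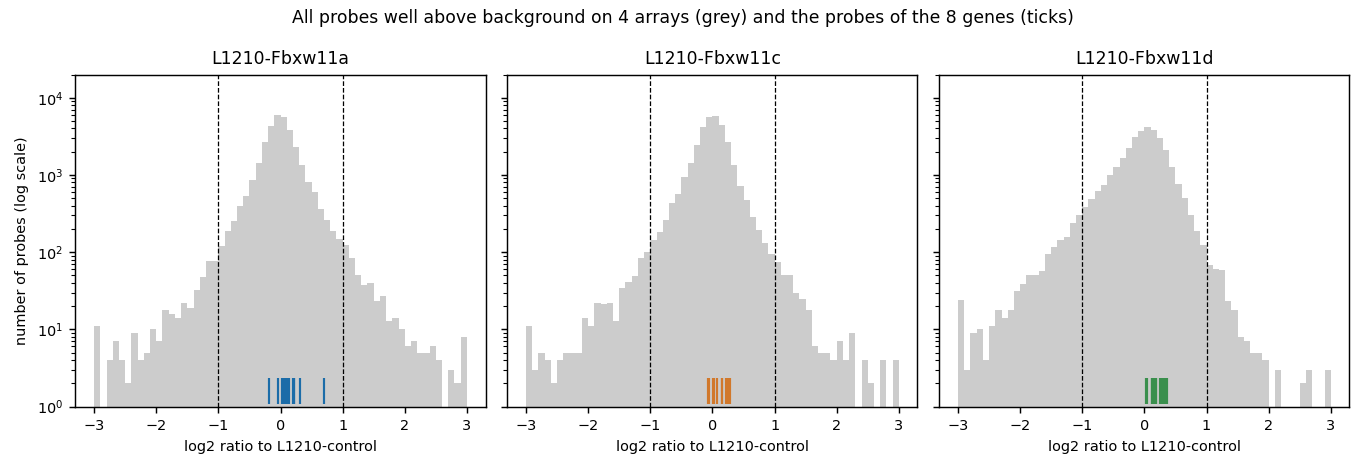
Number of probes (log y axis) by log2 ratio to the control line (x axis) for all 33071 probes well above background on the 4 arrays in grey, values beyond 3 drawn at 3, with the 14 probes of the 8 genes as colored ticks and 2-fold as dashed lines. The ticks sit in the central part of each distribution, mostly to the right of 0.

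The machinery around the complex was read from a list of 46 genes for other cullins, the Nedd8 pathway that activates cullins, the COP9 signalosome that reverses it, Cand exchange factors and ubiquitin-conjugating enzymes. Each gene was read by its brightest probe, 45 were on the array and 44 were well above background in all lines. Of the 45, bounds included, 0 passed 2-fold in the Fbxw11a and Fbxw11c lines and 1 in the Fbxw11d line, where 4.45%, 3.88% and 5.75% of all genes did. Of the 44 none passed, where 2.46%, 2.07% and 4.03% of all genes well above background on the 4 arrays did. The median log2 ratio of the 44 was 0.03 in the Fbxw11a line, 0.09 in the Fbxw11c line and 0.15 in the Fbxw11d line, beside 0.00, 0.02 and 0.04 over all genes. Ratios above 0 were found for 28, 32 and 32 of the 44, where 51.1%, 53.7% and 55.8% of all genes had them. The remaining gene, and the one past 2-fold, was Cand2, a muscle-enriched relative of the exchange factor Cand1. It read 24.9 in the control line and did not clear background in the other 3. That is at least 1.74-fold, 1.68-fold and 2.40-fold lower in the Fbxw11a, Fbxw11c and Fbxw11d lines, close to the detection limit. The extremes among the 44, named after their values were seen, were Cops7b in the Fbxw11a line, at 0.39, and Cul7, at -0.22. In the Fbxw11c line they were Uba3, a subunit of the enzyme that activates Nedd8, at 0.44, and Cul9 at -0.44. In the Fbxw11d line they were Ube2d1 at 0.53 and Dcun1d3 at -0.27. Cul9 read 36.7 in the control line and 27.1 in the Fbxw11c line, and Dcun1d3 36.2 and 30.1 in the control and Fbxw11d lines. At such signals spots of a probe had an SD of 0.60 to 0.80 on these 3 arrays, more than either ratio.

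The genes whose 3 ratios were most like those of Fbxw11 probe A_51_P141860, by the root mean square difference over the 3 log2 ratios of the 4 arrays, were Snap47 (0.33, 0.26 and 0.03), Dcaf7 (0.34, 0.26 and 0.03) and Phf21b (0.34, 0.26 and 0.01). The likeness is to values of 1 array per line, and 515 of the 16246 genes compared had a probe within 0.1 of Fbxw11.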

How the data were processed

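Total RNA of 4 L1210 lines was read on 1 one-color Agilent array each. The authors deposited the scanner files, whose signal is a background-subtracted intensity, and a table of raw intensity and normalized log2 values; the table was used to name probes and as an alternative. Agilent Feature Extraction is version 10.7.1.1 in the file headers and 9.1 in the submitters' processing notes. The normalized log2 values had the same median, 5.83, on each array. How the authors normalized them is not given in the sources used here.

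For the values reported, log2 of the processed intensity was taken minus that of the array's 75th percentile over 59305 gene spots, which was 620 in the control line, 627 in the Fbxw11a line, 672 in the Fbxw11c line and 954 in the Fbxw11d line. Outlier-flagged spots were dropped and the remaining spots of a probe averaged; each of the 15 probes had 1 spot. A probe was well above background if at least 0.5 of its spots carried that flag. A probe above background on one array of a pair gives a bound ("at least") against the lowest signal well above background. Positions and transcript starts are those of the scanner files (mm9). RefSeq names (GRCm38.p6) matched 14 of 15 probes. Alternatives were normexp with offset 50 (limma 3.58.1, R 4.3.3), quantile normalization, median centring, E1A scaling, no scaling, the deposited values, other filters, and folds of 1.5 and 3. The calculations (Python 3.11.15, pandas 2.3.3) were tested on simulated data. Named genes were all probes of the 8 genes, list genes past 2-fold, and 3 genes most like Fbxw11; the extremes of the SCF pathway list in each line lie outside that rule and were named after their values were seen. The genes and lists were chosen with earlier results of these data known.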

Additional observations from a re-analysis of the deposited data

How the results depend on the processing

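No paired analysis was possible because each line had 1 array and the shared replicate number 1 pairs nothing. None of the 14 probes passed 2-fold in any line under the 6 alternatives that changed their ratios, the largest ratio being 0.99 (Skp2 in the Fbxw11d line, without scaling). With a fold of 1.5, 1 probe of the 8 genes passed in the Fbxw11a line, where 12.7% of all probes above background on at least 1 array of the pair did. That probe, Btrc A_66_P102607, fell short of 1.5-fold with normexp, at 0.37, and with E1A scaling, at 0.57. In the Fbxw11d line all 14 probes passed 1.5-fold with E1A scaling and without scaling, the lowest ratios being 0.61 and 0.65. The median of all probes there was itself 0.59 and 0.62. The count of SCF pathway genes past 2-fold in the Fbxw11d line was 1 (Cand2), 5 with E1A scaling, 7 without scaling, and 0 with a fold of 3 or with both arrays above background, beside 5.75%, 12.2%, 13.9%, 2.04% and 4.37% of all genes; the counts of 5 and 7 among 45 are near the shares of all genes under those scalings. That in the Fbxw11a and Fbxw11c lines was 0, and 1 each with a fold of 1.5, averaging all probes of a gene, or with no filter on dim probes, beside 10.8%, 6.51% and 8.16% of all genes in the Fbxw11a line and 9.87%, 5.87% and 7.48% in the Fbxw11c line. Fbxw11 ratios for A_51_P141860 and A_55_P1961894 moved beyond the spot spread as follows. With E1A scaling they were 0.18 and 0.08 in the Fbxw11a line, 0.12 and 0.07 in the Fbxw11c line, and 0.61 and 0.76 in the Fbxw11d line. Without scaling they were 0.39 and 0.34 in the Fbxw11c line, and 0.65 and 0.80 in the Fbxw11d line. With median centring they were 0.24 and 0.39 in the Fbxw11d line, and with normexp A_55_P1961894 was 0.31 there. E1A scaling moved the median of all probes by -0.13, -0.16 and 0.59 in the 3 lines, no scaling by 0.62 and median centring by 0.22 in the Fbxw11d line; what sets the shift of that array was not tested. Keeping outlier spots, dropping the background filter or requiring both arrays above background could not change these 42 ratios, since each probe had 1 unflagged spot and cleared background on all arrays. Averaging the probes of a gene gave Btrc 0.33 in the Fbxw11a line in place of -0.04, and turned Skp1a to -0.18 in the Fbxw11a line and -0.23 in the Fbxw11d line through its probe below background.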

Other observations

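Among the other Fbxw genes, F-box genes of the same subfamily, 18 of 20 were on the array and 12 were well above background in all lines. Fbxw13 read 373 in the control line, 405 in the Fbxw11a line and 361 in the Fbxw11c line but 126 in the Fbxw11d line, a log2 ratio of -1.57 in the last. Fbxw20 read 64.6, 36.3, 42.6 and 27.5, with log2 ratios of -0.83, -0.60 and -1.23. Its variant-line signals lie in the brightness bin from 5.84 to 48.3. Spots of a probe had an SD of 0.56, 0.60 and 0.80 there in the Fbxw11a, Fbxw11c and Fbxw11d lines, so these ratios are uncertain. Of the 14 genes tested, bounds included, 1, 1 and 3 were 2-fold or more lower in the Fbxw11a, Fbxw11c and Fbxw11d lines. The count 2-fold or more higher was 0 in each. Over all genes 2.02%, 2.27% and 4.70% were 2-fold or more lower. In the Fbxw11d line 6 of the 12 genes well above background were above 0 and 6 below, the highest ratio being 0.69. Fbxw14 probe A_55_P2035376 read 173 in the control line and was not well above background in the other lines, at least 12-fold lower in the Fbxw11a line, 11.6-fold in the Fbxw11c line and 16.6-fold in the Fbxw11d line. The second Fbxw14 probe was not well above background in the control line and was so only in the Fbxw11d line, at 13.0, so the probes of this gene disagreed. The medians of the 12 genes were -0.01, -0.05 and -0.03. Each value is a single spot on a single array.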
